A study of Homo sapiens with 4 samples.

Results

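A set of 10 genes, of the 20263 in the deposited count table, were followed here as a readout of epithelial against mesenchymal identity. They were chosen by name, as the rows whose Ensembl identifier maps to ELF3, ESRP1, CLDN4, CDH1, EPCAM and GRHL2 on the epithelial side and to ZEB1, SNAI2, VIM and CDH2 on the mesenchymal side. All 10 symbols were found once each, and the choice was made with earlier results of these data known. RNA was sequenced from the human cell line MDA-MB-231, a triple-negative breast cancer line, in 2 libraries from cells treated for 24 h with RB-BC, named in the series title as derived from ribociclib, an inhibitor of CDK4 and CDK6, and in 2 libraries from cells given the vehicle DMSO for the same time. The treatment text in the labels names the compound Rib_CA instead, and whether that is RB-BC, and at which dose it was given, is not stated in the sources used here. Both groups were grown in medium with 10% fetal bovine serum, and all libraries come from the same line, so the results describe that line only. Nothing in the labels says that replicates were separate cultures, so p-values describe the spread among the 4 libraries alone, and that spread may be technical.

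Epithelial cells hold together through adherens junctions built on E-cadherin (the product of CDH1) and tight junctions built on claudins, and factors such as GRHL2 and ELF3 and the splicing regulator ESRP1 maintain that state. In an epithelial-mesenchymal transition, repressors such as ZEB1 and SNAI2 bind E-box elements in epithelial genes, E-cadherin is lost, and vimentin (VIM) and N-cadherin (CDH2) are commonly gained. MDA-MB-231 is widely used as a mesenchymal-like breast cancer line.

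The epithelial genes ELF3, ESRP1 and CLDN4 and the mesenchymal regulator ZEB1 rose with RB-BC. ELF3 was 5.16-fold higher, ESRP1 2.16-fold and CLDN4 1.98-fold, and ZEB1, the repressor of epithelial genes, was 1.75-fold higher. CDH1 and GRHL2 stayed at or near 0 counts in every library. EPCAM, SNAI2, VIM and CDH2 did not pass the test. Of the 8 genes with enough counts to be tested, 4 passed, all of them higher in RB-BC, where 16.1% of the 13744 genes tested passed in either direction and 8.58% passed as higher. None of the 8 passed as lower, where 7.53% of all genes did; 1 of them was lower at an unadjusted p under 0.05 in edgeR, and 0 passed as lower in DESeq2 or limma-voom. The test was edgeR's quasi-likelihood test across all genes with Benjamini-Hochberg adjustment at 0.05, and every log2 fold change is RB-BC over DMSO. Because the RNA was bulk, a change in the share of cells that express a gene and a change in RNA per cell cannot be told apart.

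Library totals ran from 42752387 to 42786422 counts in RB-BC and from 34774542 to 37754168 in DMSO. The DMSO 2 library stood apart, with 21.7% of its counts in the 13 mitochondrially encoded genes, against 10.1% and 10.3% in the RB-BC libraries and 8.68% in DMSO 1. Levels are given as CPM scaled by TMM, which corrects library totals for composition. As a check of the labelled line, the hormone receptor genes ESR1 and PGR averaged 0.206 and 1.12 CPM in RB-BC and 0.410 and 1.54 CPM in DMSO. Blood cell markers other than CD68, a lysosomal protein gene that many cell types express, summed to 1.64 and 2.03 CPM in RB-BC and 1.06 and 0.955 CPM in DMSO, with CD3E at 0 counts throughout and 0 of the 3 tested blood markers past the threshold (2 higher at an unadjusted p under 0.05, PTPRC and CD68, the second of which averaged 487 ± 22.1 CPM in RB-BC and 240 ± 130 CPM in DMSO). Endothelial markers summed to 10.7 and 13.8 CPM in RB-BC and 7.57 and 6.80 CPM in DMSO, with 0 of 3 tested past the threshold (2 higher unadjusted, of which KDR, the most abundant, was at 0.72 ± 0.22, adjusted p = 0.0780, in edgeR). In DESeq2 CD68 passed (adjusted p = 0.0216), and it did so in edgeR with the replicate number as a block (log2 fold change 1.13, adjusted p = 0.0201), without DMSO 1 (0.55) and without DMSO 2 (1.72). The part of these markers in the results was not tested.

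**Figure D1:**
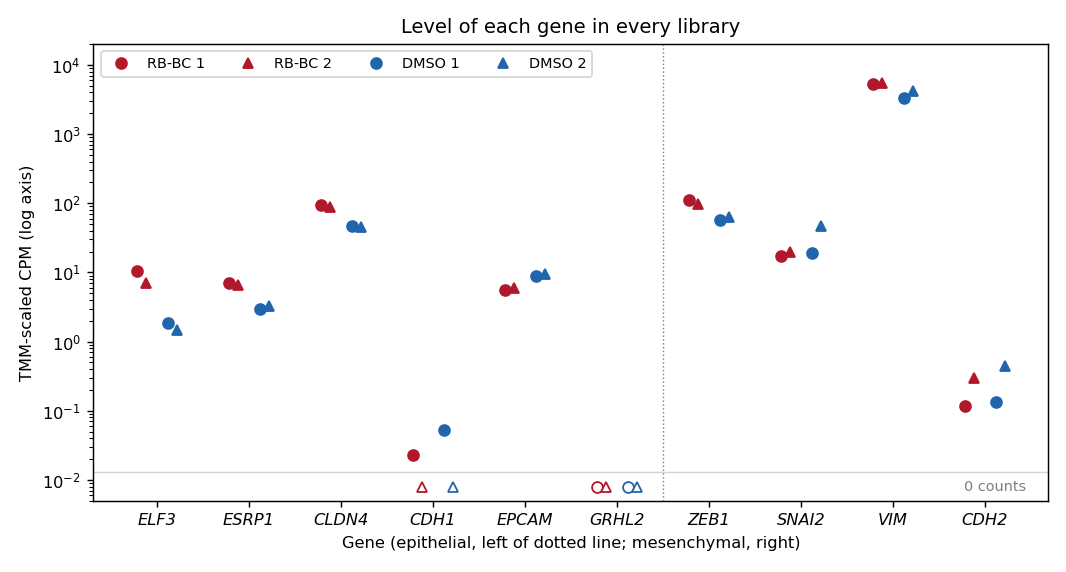
TMM-scaled CPM of the 10 genes in each of the 4 libraries on a log axis, with the RB-BC libraries in red left of the DMSO libraries in blue, and with open symbols below the grey line for 0 counts. ELF3, ESRP1, CLDN4 and ZEB1 lie higher in both RB-BC libraries than in either DMSO library, CDH1 and GRHL2 lie at the floor, and SNAI2 and CDH2 spread widely within a group.

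ELF3 (ENSG00000163435, chromosome 1) encodes an epithelium-restricted transcription factor of the ETS family, which in other cell types is known as a gene switched on by inflammatory cytokines. It had 451 and 305 counts in the RB-BC libraries, against 70 and 50 in the DMSO libraries, or 10.4 and 6.96 CPM against 1.86 and 1.49 CPM. Both RB-BC libraries lay above both DMSO libraries, although the RB-BC pair differed between themselves by 1.49-fold. The log2 fold change was 2.37 ± 0.30 (SE, n = 2 per group; edgeR adjusted p = 0.0108). Leaving out 1 library at a time gave 2.05 to 2.63, and the call was lost without RB-BC 1 (edgeR adjusted p = 0.0565). In the GENCODE 29 annotation ELF3 overlaps the antisense gene ELF3-AS1 and the same-strand AL691482.3, neither of which is a row of the table, and since the strand setting of the counting is not given, reads from these genes cannot be told apart from ELF3.

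Promoter windows of the called genes ELF3, CLDN4 and ZEB1 are shown because ZEB1 and SNAI2 act through the E-box CACCTG, read as CAGGTG on the other strand. RefSeq windows (build GRCh38.p14, 250 bases before to 50 bases after a start, 300 bases in all) were used for 5 of the 10 genes. These were ELF3, CLDN4, ZEB1, VIM and CDH2. For the rest of the 10, the called gene ESRP1 among them, no window was searched, so nothing is said on their promoters. Capitals mark each match of the motif on either strand, and no other motif was searched. The ELF3 window is chr1:202010337-202010636 (plus strand), the CLDN4 window chr7:73830746-73831045 (plus strand), and the ZEB1 window, the one of 7 with the most matches, chr10:31318966-31319265 (plus strand).
ELF3: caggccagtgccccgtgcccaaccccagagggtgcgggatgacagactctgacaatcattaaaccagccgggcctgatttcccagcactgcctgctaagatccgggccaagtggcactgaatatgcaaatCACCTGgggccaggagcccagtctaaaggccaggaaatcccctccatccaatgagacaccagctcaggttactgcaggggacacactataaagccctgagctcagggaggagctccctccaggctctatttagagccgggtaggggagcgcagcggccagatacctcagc
CLDN4: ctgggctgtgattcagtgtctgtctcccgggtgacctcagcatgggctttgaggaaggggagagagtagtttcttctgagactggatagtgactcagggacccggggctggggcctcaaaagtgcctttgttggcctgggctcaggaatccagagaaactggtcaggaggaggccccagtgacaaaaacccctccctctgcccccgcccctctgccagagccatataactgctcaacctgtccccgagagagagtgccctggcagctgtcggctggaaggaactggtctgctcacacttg
ZEB1: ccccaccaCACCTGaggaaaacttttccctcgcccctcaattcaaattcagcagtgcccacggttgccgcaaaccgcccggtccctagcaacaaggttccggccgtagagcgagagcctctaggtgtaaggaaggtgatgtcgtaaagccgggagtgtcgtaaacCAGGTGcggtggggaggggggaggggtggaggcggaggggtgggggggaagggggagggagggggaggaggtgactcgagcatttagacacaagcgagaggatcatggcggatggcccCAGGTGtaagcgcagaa
The ELF3 window held 1 match, 120 bases upstream of the start. The ZEB1 window held 3, at 242 and 85 bases upstream and at base 34 of the transcript, and a second ZEB1 window, chr10:31318167-31318466, held 1 at 57 bases upstream. No match was in the CLDN4 window, in the VIM window or in the 2 CDH2 windows. Of the 7 ZEB1 windows, 2 held a match. At least 1 match was held by 20.6% of the 35116 RefSeq windows searched, and 0.635% held 3 or more. These shares are per window, whereas the ZEB1 window shown was picked from 7 for its matches, so they do not apply to it. A match describes the letters only and says nothing on binding in these cells.

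CLDN4 (ENSG00000189143, chromosome 7), which encodes the tight junction protein claudin-4, was the most abundant of the 6 epithelial genes. It had 4122 and 3803 counts in RB-BC, against 1762 and 1512 in DMSO, or 95.0 and 86.8 CPM against 46.8 and 45.1 CPM. The replicates differed by 1.10-fold in RB-BC and 1.04-fold in DMSO, and the groups did not overlap. The log2 fold change was 0.98 ± 0.14 (SE; edgeR adjusted p = 0.0128), with 0.92 to 1.05 when 1 library was left out. The call was lost without RB-BC 1 (adjusted p = 0.120 in edgeR) and also when RB-BC 2 was left out (0.0622).

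ESRP1 (ENSG00000104413, chromosome 8) encodes an RNA-binding protein that sets the epithelial splice forms of transcripts such as those of FGFR2 and CD44. It had 305 and 285 counts in RB-BC, against 111 and 111 in DMSO, or 7.03 and 6.50 CPM against 2.95 and 3.31 CPM. The groups did not overlap, at a log2 fold change of 1.11 ± 0.22 (SE; edgeR adjusted p = 0.0269). The value was 1.06 with RB-BC 1 left out (adjusted p = 0.190 in edgeR) and 1.17 with RB-BC 2 left out (0.121), past the threshold in neither case. Gene-level counts carry no splice forms, so the isoforms under ESRP1 control were not measured here. Its relative ESRP2 had 275 and 251 counts in RB-BC and 219 and 309 in DMSO, and was at −0.32 ± 0.27 (edgeR adjusted p = 0.445).

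EPCAM (ENSG00000119888, chromosome 2), an epithelial cell adhesion molecule, was the only one of the 4 tested epithelial genes with a negative fold change. It had 238 and 264 counts in RB-BC, against 330 and 313 in DMSO, or 5.49 and 6.02 CPM against 8.76 and 9.34 CPM. Both RB-BC libraries lay below both DMSO libraries, as was the case in one direction or the other for 65.2% of all genes tested. The log2 fold change was −0.65 ± 0.19 (SE; edgeR adjusted p = 0.0701), and the range over 4 fits with 1 library left out was −0.72 to −0.58. It passed in none of the alternatives run, with the smallest adjusted p in DESeq2 (0.0519).

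CDH1 (ENSG00000039068, chromosome 16) had 1 and 0 counts in RB-BC and 2 and 0 in DMSO. GRHL2 (ENSG00000083307, chromosome 8), a transcription factor that activates CDH1 and claudin genes and represses ZEB1 in epithelial cells, had 0 counts in all 4 libraries. Neither could be tested, and no fold is given. A count of 0 allows up to 3 counts, which is 0.0701 and 0.0702 CPM of the total in RB-BC 1 and RB-BC 2 and 0.0863 and 0.0795 CPM in DMSO 1 and DMSO 2. The 1 and 2 counts of CDH1 have upper 95% exact (Clopper-Pearson) bounds of 0.130 CPM in RB-BC 1 and 0.208 CPM in DMSO 1, which cover counting error only. These counts came from cells where ELF3, ESRP1 and CLDN4 had at least 285 counts per library after RB-BC.

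ZEB1 (ENSG00000148516, chromosome 10), a zinc finger repressor of CDH1 and other epithelial genes, had 4901 and 4305 counts in RB-BC, against 2183 and 2100 in DMSO. These are 113 and 98.2 CPM against 58.0 and 62.7 CPM. The groups did not overlap, and the log2 fold change was 0.81 ± 0.15 (SE; edgeR adjusted p = 0.0220). Leaving out 1 library gave 0.71 to 0.91, and the call did not survive the loss of RB-BC 1 (adjusted p = 0.202 in edgeR) or of RB-BC 2 (0.0925). The exons of ZEB1 overlap the antisense gene ZEB1-AS1, which is not a row of the table, and their reads cannot be told apart without strand.

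SNAI2 (ENSG00000019549, chromosome 8), which encodes the E-box repressor SLUG, had 737 and 854 counts in RB-BC, against 718 and 1588 in DMSO. In CPM these are 17.0 and 19.5 in RB-BC, against 19.1 and 47.4 in DMSO. The RB-BC libraries lay close to DMSO 1 and far below DMSO 2, where mitochondrial counts were also high. The log2 fold change of −0.86 ± 0.41 (SE; edgeR adjusted p = 0.187) therefore rested on DMSO 2, being −1.38 without DMSO 1, where it passed (adjusted p = 0.0106 in edgeR), and −0.06 with DMSO 2 left out (0.781).

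VIM (ENSG00000026025, chromosome 10), the intermediate filament gene used as the main mesenchymal marker, had 226660 and 239563 counts in RB-BC, against 124373 and 139013 in DMSO. In CPM these are 5225 and 5465 in RB-BC, against 3303 and 4147 in DMSO, and both RB-BC libraries were the higher. The log2 fold change of 0.52 ± 0.20 (SE) did not pass in edgeR (adjusted p = 0.123) but did in DESeq2 (adjusted p = 0.0309), and also with DMSO 2 left out (0.69, adjusted p = 0.0156 in edgeR). VIM overlaps the antisense gene VIM-AS1 and AL133415.1, neither of which is a row of the table. CDH2 (ENSG00000170558, chromosome 18) was near the limit of detection, with 5 and 13 counts in RB-BC and 5 and 15 in DMSO. Its log2 fold change of −0.47 ± 0.82 (SE; edgeR adjusted p = 0.719) changed sign with the libraries used, at 0.05 without RB-BC 1 and 0.62 without DMSO 2.

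**Figure D2:**
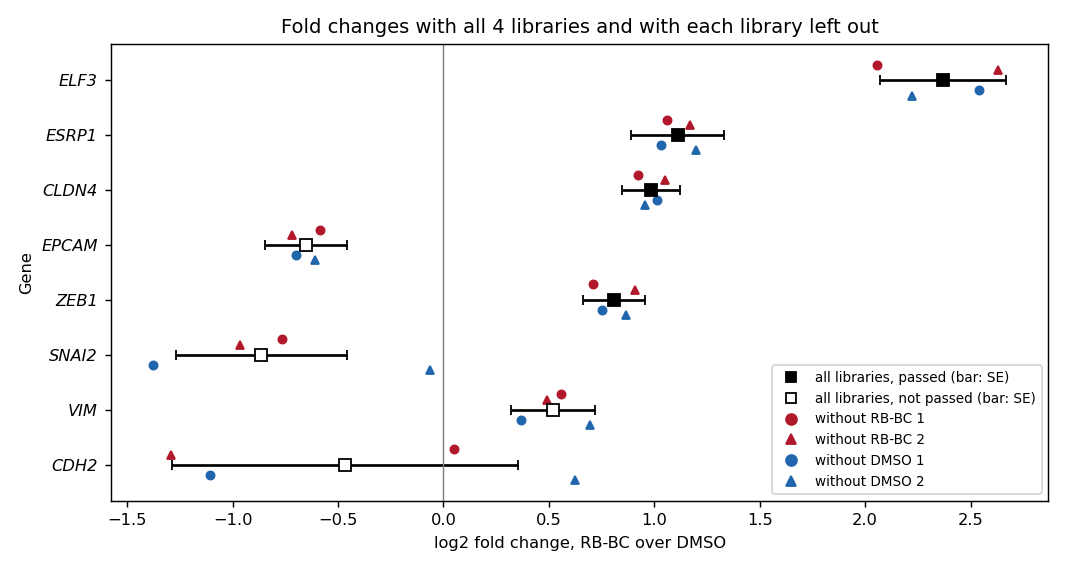
Log2 fold change, RB-BC over DMSO, of the 8 tested genes with all 4 libraries (squares, filled where the adjusted p was under 0.05, bars one SE) and with each library left out (coloured symbols). The values of ELF3, ESRP1, CLDN4 and ZEB1 stay above 0 and close to the squares, while those of SNAI2 run from −1.38 to −0.06 and those of CDH2 cross 0.

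Per length, using the summed exon bases of each gene in GENCODE 29, which need not be the annotation the authors counted on, the order of levels in RB-BC was VIM (1036 ± 33.0 CPM per kilobase), CLDN4 (19.3 ± 1.24), ZEB1 (12.2 ± 1.21), SNAI2 (5.38 ± 0.520), EPCAM (2.28 ± 0.151), ESRP1 (1.39 ± 0.0767), ELF3 (1.21 ± 0.338) and CDH2 (0.0416 ± 0.0259), each as mean ± SD of n = 2. In DMSO the order was VIM (722 ± 116 CPM per kilobase), SNAI2 (9.80 ± 5.90), CLDN4 (9.77 ± 0.253), ZEB1 (6.97 ± 0.382), EPCAM (3.59 ± 0.161), ESRP1 (0.642 ± 0.0528), ELF3 (0.233 ± 0.0361) and CDH2 (0.0586 ± 0.0450). ESRP1 lay within the range of ELF3 in RB-BC, with ELF3 at 1.45 and 0.968 and ESRP1 at 1.44 and 1.33 CPM per kilobase. In DMSO they did not overlap, with ELF3 at 0.259 and 0.207 and ESRP1 at 0.605 and 0.679. SNAI2 spanned both CLDN4 and ZEB1 in DMSO, at 5.62 and 14.0 CPM per kilobase, so its place relative to them there is not set. By its level per kilobase VIM was above 99.8% of 13728 genes in both groups, whereas ELF3 was above 23.7% of them in RB-BC and 9.21% in DMSO.

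Ratios of counts within a library do not depend on how libraries are scaled. ELF3 had 92.0 and 70.9 counts per 1000 counts of ZEB1 in the RB-BC libraries, against 32.1 and 23.8 in the DMSO libraries, which is a 2.92-fold difference with no overlap. ESRP1 had 62.2 and 66.2 per 1000 ZEB1 counts in RB-BC, against 50.9 and 52.9 in DMSO, a 1.24-fold difference. CLDN4 and ZEB1 moved nearly in step, with 841 and 883 CLDN4 counts per 1000 ZEB1 counts in RB-BC and 807 and 720 in DMSO, a 1.13-fold difference. Against VIM, CLDN4 stood at 18.2 and 15.9 per 1000 in RB-BC and 14.2 and 10.9 in DMSO, and ZEB1 at 21.6 and 18.0 in RB-BC and 17.6 and 15.1 in DMSO. EPCAM had 57.7 and 69.4 counts per 1000 CLDN4 counts in RB-BC, against 187 and 207 in DMSO, or 0.322 of the DMSO value in RB-BC. SNAI2 had 150 and 198 counts per 1000 ZEB1 counts in RB-BC, against 329 and 756 in DMSO. The groups did not overlap in any of the 7 ratios. Of all genes tested 65.2% did not overlap either, and 6 of the genes in these ratios were among them, so nothing is read from that count. The ratios are given as a description, without a test.

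**Figure D3:**
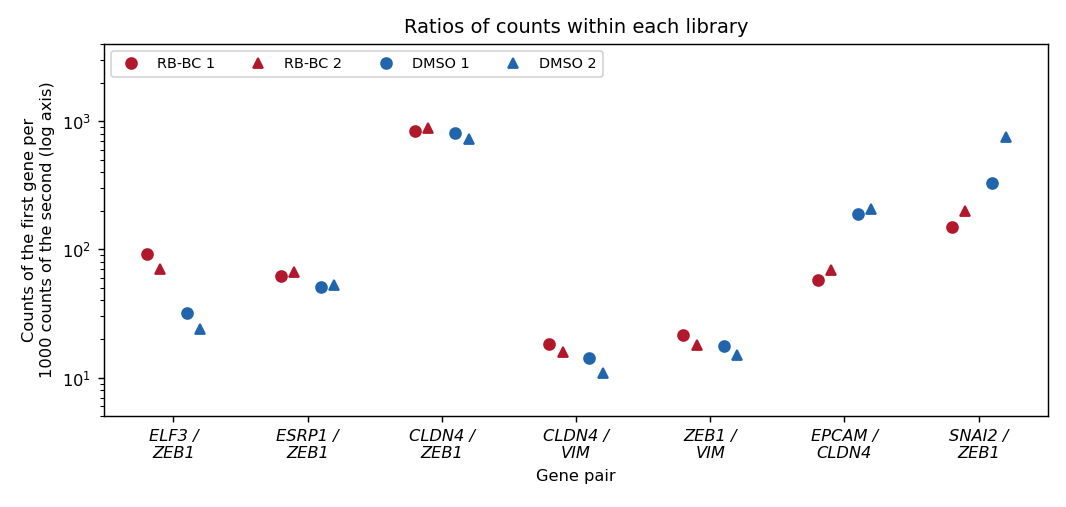
Counts of the first gene per 1000 counts of the second within each library, on a log axis, for 7 gene pairs, RB-BC in red left of DMSO in blue. The ELF3 to ZEB1 ratio is higher in RB-BC (92.0 and 70.9) than in DMSO (32.1 and 23.8), the CLDN4 to ZEB1 ratio changes little, and the EPCAM to CLDN4 and SNAI2 to ZEB1 ratios are lower in RB-BC.

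Of 20 other listed regulators of epithelial identity, 14 were tested, 2 rose and 0 fell. Over all genes tested 8.58% passed as higher and 7.53% as lower. In edgeR 1 was lower at an unadjusted p under 0.05, where 2331 of all 13744 genes tested were. DESeq2 called 1 as lower, where it called 1583 of all genes lower. EHF, an epithelial ETS factor closely related to ELF3, averaged 4.60 ± 0.0474 CPM in RB-BC and 1.58 ± 0.426 CPM in DMSO (mean ± SD of n = 2 libraries), which is 1.53 ± 0.29 on the log2 scale (SE; edgeR adjusted p = 0.0240). KLF4, a zinc finger factor of epithelial differentiation, averaged 107 ± 3.35 CPM in RB-BC and 57.3 ± 13.5 CPM in DMSO (0.90 ± 0.19, edgeR adjusted p = 0.0320). The luminal breast factors FOXA1 (0.15 ± 0.19, edgeR adjusted p = 0.604) and GATA3 (−0.87 ± 0.40, edgeR adjusted p = 0.179) did not pass, and OVOL1, OVOL2, GRHL3 and ELF5 were among the 6 with too few counts to be tested. The median log2 fold change of the 14 was 0.0008, against −0.0016 over all genes tested. Neither EHF nor KLF4 passed without RB-BC 1 or without RB-BC 2, at values of 0.88 to 1.55. The calls in the list also changed with the DMSO library left out.

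Junction and surface genes of epithelial cells split in direction. Of 36 tested (40 listed), 6 rose and 4 fell, at a median of 0.24. Over all genes tested 8.58% passed as higher and 7.53% as lower, at a median of −0.0016. Of the genes that passed, CLDN1, the claudin-1 gene, had the largest fold change, with 99.8 and 91.4 CPM in RB-BC against 18.0 and 20.4 CPM in DMSO, a log2 fold change of 2.32 ± 0.15 (SE; edgeR adjusted p = 0.00378) that kept its call in all 12 alternatives, at 2.23 to 2.41. CLDN7 was at 1.09 ± 0.21, F11R, which encodes the tight junction protein JAM-A, at 0.95 ± 0.19, and SPINT2, an inhibitor of membrane serine proteases, at 0.77 ± 0.15. The other rises, named after their values were seen, were SPINT1 (1.45 ± 0.30), the relative of SPINT2, and TJP3 (1.96 ± 0.41), which encodes the tight junction scaffold ZO-3 and had 68 and 52 counts in RB-BC against 13 and 12 in DMSO. With CLDN4 among the 10 genes, 3 claudins thus passed as higher, and CLDN3 did not pass (0.79 ± 0.28, edgeR adjusted p = 0.104). Among the 4 that fell were PPL, encoding periplakin (−1.23 ± 0.20), the desmosomal gene PKP2 (−0.93 ± 0.17), and AP1M2, an epithelial sorting adaptor subunit (−0.67 ± 0.17). Without RB-BC 1 and without RB-BC 2, CLDN1 alone in this list passed, and the calls also changed with the DMSO library left out. With library totals alone rises and falls numbered 5 and 2, where 790 of all genes tested passed as higher and 415 as lower. CLDN7 and AP1M2 were among the calls lost (edgeR adjusted p = 0.0530 and 0.139).

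Among other mesenchymal transcription factors, 12 of 20 listed genes were tested, 1 rose and 0 fell, where 8.58% of all genes passed as higher and 7.53% as lower. In edgeR 3 were higher and 2 lower at an unadjusted p under 0.05, where 2497 and 2331 of all 13744 genes tested were. DESeq2 called 2 in each direction, where it called 1639 of all genes higher and 1583 lower. The 1 rise was TCF4, a basic helix-loop-helix factor (edgeR adjusted p = 0.0390). It had 18 and 11 counts in RB-BC and 0 and 0 in DMSO. Its RB-BC mean was 3.94-fold a floor of 3 counts per DMSO library. That ratio takes no account of counting error in RB-BC and so is not a lower bound. At such counts the call was fragile, being lost with no low-count filter (edgeR adjusted p = 0.0619) and when RB-BC 2 (0.101), DMSO 1 (0.0568) or DMSO 2 (0.0504) was left out. ZEB2, the paralog of ZEB1, had 1537 and 1567 counts in RB-BC and 867 and 868 in DMSO (0.54 ± 0.15, edgeR adjusted p = 0.0578). SNAI1 had 152 and 80 counts in RB-BC and 31 and 88 in DMSO (0.63 ± 0.59, edgeR adjusted p = 0.481), and TWIST1 and TWIST2 had 0 counts in every library. On the lower side, LEF1, a transcription factor of the Wnt pathway, had 957 and 915 counts in RB-BC and 1167 and 1571 in DMSO (−0.86 ± 0.22, edgeR adjusted p = 0.0520). SOX9 had 3405 and 3890 counts in RB-BC and 4519 and 8191 in DMSO (−1.12 ± 0.33, edgeR adjusted p = 0.0676). In this list 2 genes passed as lower with the replicate number as a block, where 962 of all genes tested did. The calls also changed with the library left out. The list median was 0.21, also with TCF4 set at 3.94-fold.

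Of 28 tested mesenchymal structural and surface genes (37 listed), 2 rose and 2 fell at a median of 0.08. These counts lie near the shares over all genes tested, 8.58% higher and 7.53% lower, so nothing is read from them. COL6A2, a chain of collagen VI, averaged 19.3 ± 2.25 CPM in RB-BC and 7.74 ± 1.97 CPM in DMSO (1.32 ± 0.23, edgeR adjusted p = 0.0201), and ITGA5, the fibronectin receptor subunit, 154 ± 0.348 CPM in RB-BC and 84.6 ± 4.06 CPM in DMSO (0.86 ± 0.14, edgeR adjusted p = 0.0160). CAV1, which encodes caveolin-1, averaged 268 ± 5.87 CPM in RB-BC and 573 ± 1.70 CPM in DMSO (−1.10 ± 0.14, edgeR adjusted p = 0.0113), and FBN1, which encodes fibrillin-1, 66.3 ± 4.06 CPM in RB-BC and 106 ± 5.10 CPM in DMSO (−0.68 ± 0.14, edgeR adjusted p = 0.0290). FN1, the fibronectin gene (0.08 ± 0.21, edgeR adjusted p = 0.821), and CD44 (−0.01 ± 0.17, edgeR adjusted p = 0.977) did not pass. None of the calls in this list held without RB-BC 1, and that of COL6A2 alone held without RB-BC 2. The calls also changed with the DMSO library left out. With 1 library left out COL6A2 ran from 1.08 to 1.60, ITGA5 from 0.82 to 0.92, CAV1 from −1.12 to −1.07 and FBN1 from −0.74 to −0.62.

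Corepressors and chromatin partners that ZEB and SNAI proteins recruit were all tested. Of the 12, 1 fell and 0 rose in edgeR, a share close to the 7.53% of all genes that passed as lower. At an unadjusted p under 0.05 in edgeR, 5 were lower and 0 higher, where 2331 of all 13744 genes tested were lower and 2497 higher. DESeq2 called 0 of the 12 as higher, where it called 1639 of all genes higher and 1583 lower. The median was −0.30, against −0.0016 over all genes tested. EZH2, the histone methyltransferase of Polycomb repressive complex 2, averaged 51.4 ± 2.61 CPM in RB-BC and 104 ± 12.4 CPM in DMSO (−1.02 ± 0.15, edgeR adjusted p = 0.0148). Its call was lost when either RB-BC library was left out (adjusted p = 0.113 for RB-BC 1 and 0.100 for RB-BC 2, in edgeR), and DESeq2 called 5 of the 12 as lower.

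**Figure D4:**
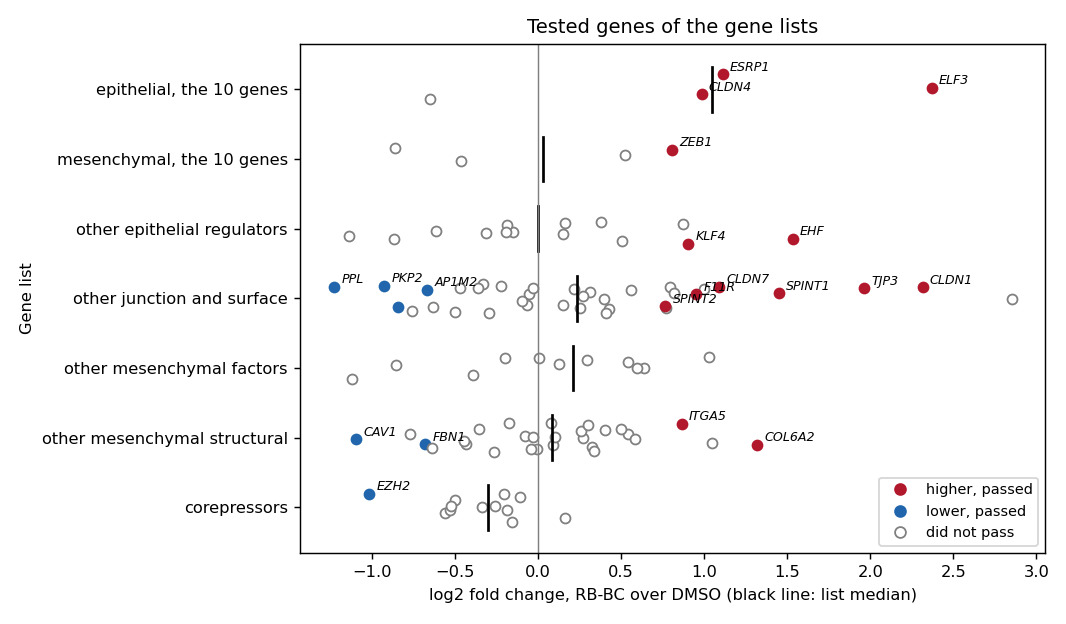
Log2 fold change, RB-BC over DMSO, of every tested gene in 7 lists, with filled red or blue circles for genes past the threshold as higher or lower, open circles for the rest and a black line at the list median. TCF4 is left out of the drawing because it had 0 counts in DMSO. CLDN1 (2.32) and ELF3 (2.37) lie furthest to the right among the called genes drawn, the junction list holds calls on both sides of 0, and 1 open circle further right is CRB3, with 6 and 0 counts in DMSO.

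The genes whose profile over the 4 libraries was most like that of ELF3, by Euclidean distance between log2 CPM profiles each centred on its own mean, were RND1, a small GTPase gene (distance 0.105), TRIB3, a pseudokinase gene (0.240), and BBC3, the gene of the pro-apoptotic protein PUMA (0.244). RND1 had 208 and 155 counts in RB-BC and 34 and 24 in DMSO, and so was higher in RB-BC 1 than in RB-BC 2, as ELF3 was. For ZEB1 the 3 closest profiles were those of MRPL53, a mitochondrial ribosomal protein gene (0.0341), RPL27A, a cytosolic ribosomal protein gene (0.0433), and RNF5, a ubiquitin ligase gene (0.0439), with log2 fold changes of 0.80, 0.78 and 0.80. With 4 libraries and 13727 genes searched, likeness is a description only.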

How the data were processed

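The authors deposited whole-number read counts per Ensembl gene, with 1 column per library and no normalization that the values show. Per the labels' protocols, mRNA libraries were made from 1.4 µg of column-purified total RNA. Which aligner, counter, strand setting and annotation were used is not stated in these sources. The builds named in the submitters' processing notes (GRCm38, mm10) are those of the mouse, while all 20263 identifiers are human. For that reason gene coordinates are not printed, and promoter coordinates are those of the RefSeq table. In RB-BC 1 a count of 2 occurred for 454 genes and a count of 1 for 104, and the other libraries were alike, so single counts are not independent molecules and limits from counts cover counting error only.

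Groups came from sample titles. Genes passing filterByExpr (minimum count 10, minimum total 15) were tested in edgeR 4.0.16 (R 4.3.3) with TMM scaling and the quasi-likelihood test, two-sided, Benjamini-Hochberg adjusted. The SE is the log2 fold change over the root of the F statistic. On simulated counts of 13744 genes drawn for this comparison, 28% of 50 genes changed 2-fold and 86% of 50 changed 4-fold were recovered, with 9 false calls. Only 4% of 50 genes changed 1.5-fold were recovered. A gene with a change near that size, such as EPCAM or VIM, may therefore have changed without passing. Alternatives used DESeq2 1.42.0, limma 3.58.1 (voom), other scalings and filters, a replicate block, and each library left out. The 10 genes and all gene lists were chosen with earlier results of these data known. Named genes were the 10, from each list up to 4 genes per direction with the smallest adjusted p (or the 2 most abundant where none passed), and the 3 closest profiles to ELF3 and ZEB1, the called epithelial and mesenchymal genes with the smallest adjusted p. Other genes named to show the range of a list, to complete a small count or as untested markers were picked once their values had been seen. Not reported here are a few list genes, 1 of which this rule names.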

Additional observations from a re-analysis of the deposited data

How the results depend on the processing

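Of the 95 values that the 8 tested genes took under the alternatives, 83 kept direction and side of the threshold, 7 lost a call, 3 gained one and 2 changed sign (CDH2, at 0.05 without RB-BC 1 and 0.62 without DMSO 2, against −1.29 without RB-BC 2, none past the threshold). All 7 losses, in ELF3, ESRP1, CLDN4 and ZEB1, came with an RB-BC library left out, where the spread comes from the DMSO pair alone and the lone RB-BC library is assumed to vary like it. Of the 10 genes, 0 to 5 passed with 1 library left out (0 without RB-BC 1, 1 without RB-BC 2), 0 to 5 as higher and 0 to 1 as lower. Over all genes, 2214 passed (1179 higher, 1035 lower), and with 1 library left out 205 to 3648 passed, 149 to 1888 as higher and 56 to 1760 as lower. With library totals alone 1205 passed, 790 higher and 415 lower, so that the split leaned to rises, and the 4 calls among the 10 genes were kept. DESeq2 called 1639 higher and 1583 lower, and VIM besides those 4. With the replicate number as a block 2114 genes passed, and the same 4 of the 10. The numbers do not pair the libraries by any label, and deviations of same-numbered libraries correlated at −0.0341 across genes. The cause of these differences was not tested. Counts of CDH1, GRHL2 and CDH2 were at most 15, and whether depth limited them was not tested.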
